A study of Mus musculus with 6 samples.

Results

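The replication-dependent histone genes were taken as every gene symbol in the 6 count tables that begins with Hist1h, Hist2h, Hist3h or Hist4h, which gave 68 of 23420 genes. By symbol they comprise 6 linker histone H1 genes, 18 H2A genes, 19 H2B genes, 12 H3 genes and 13 H4 genes. Of these, 54 belong to cluster 1, 10 to cluster 2, 3 to cluster 3 and 1 to cluster 4. One symbol, Hist3h2bb-ps, is a pseudogene in the GENCODE M21 models and the other 67 are protein-coding. Replication dependence was not measured here, and the symbols include Hist1h1t, a testis gene.

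All 6 libraries came from NIH 3T3 cells, an immortalised mouse fibroblast line, transfected with the pEGFP-NXF3 plasmid. The 3 input libraries were made without antibody, and the 3 pulldown libraries were made from RNA recovered with an anti-GFP antibody on protein A beads, per the labels in 3 independent experiments. NXF3 belongs to the nuclear export factor family, whose member NXF1 carries bulk mRNA out of the nucleus. The bait plasmid was carried by the cells of every library, a pulldown from cells without the bait was not analysed here, and the title of the series places its question in small nucleolar RNAs. The libraries held small RNA with gel products of 30 to 375 nucleotides, so reads of histone genes are read counts of fragments and do not measure intact mRNA.

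Core histones H2A, H2B, H3 and H4 form the protein spool of the nucleosome, and H1 binds the linker DNA beside it. Their replication-dependent mRNAs accumulate in S phase, lack introns and end in a conserved stem-loop where other mRNAs carry poly(A). The stem-loop is bound by SLBP, and the 3′ end is cut with the help of the U7 snRNP. Export of these intronless mRNAs is known to run through NXF1 and adaptor proteins, SR proteins among them.

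The stem-loop is the sequence that sets this gene family apart, and it was looked for in the transcripts of GENCODE M21 (build GRCm38; the deposited counts were made on mm9). The motif searched on both strands was GGNNCTT followed without a gap by NTN and then AGNNCC, 16 bases in all, with the requirement that its first 6 and last 6 bases pair. Of 67 members with a coding model, 46 (68.7%) held it after the stop codon, at 21 to 58 nucleotides from the stop codon (median 31). Among 21810 other protein-coding genes 9 (0.0413%) held it on the sense strand and 3 (0.0138%) on the other. Of the 21 members with no match, 13 had a model that ends at the stop codon. The 8 loops below are shown because they belong to members described in the results and cover the forms of both arms, with the stem and loop in capitals and up to 5 flanking bases in lower case.
Hist1h4d: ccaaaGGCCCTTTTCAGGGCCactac
Hist1h4c: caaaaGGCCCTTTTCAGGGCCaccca
Hist1h4i: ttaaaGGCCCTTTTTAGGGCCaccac
Hist1h4b: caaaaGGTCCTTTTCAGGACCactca
Hist1h3c: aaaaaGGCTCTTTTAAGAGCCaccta
Hist3h2a: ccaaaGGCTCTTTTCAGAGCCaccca
Hist2h2ac: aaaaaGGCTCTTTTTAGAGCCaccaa
Hist1h1d: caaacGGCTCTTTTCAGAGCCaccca

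The stem split the H4 genes from the rest. The 5′ arm read GGCCCT in 10 of 12 H4 loops and GGTCCT in the other 2, while it read GGCTCT in 34 of 34 loops of H1, H2A, H2B and H3 genes. The loop itself did not follow this split: TTTC was the commonest form on both sides, in 9 of 12 H4 loops and in 26 of 34 others. The most frequent full form outside H4, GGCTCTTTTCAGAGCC, was found in 26 members, and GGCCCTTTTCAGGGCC in 7 H4 genes.

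Gene counts ran from 769570 in pulldown 1 to 6946284 in pulldown 2, and genes of small stable RNAs together with Gas5 took 95.4% to 98.6% of them. Histone genes were therefore read from few counts: 1565, 1355 and 3789 across inputs 1 to 3, and 369, 1488 and 1658 across pulldowns 1 to 3. Pulldown 1 was the shallowest library and stood apart, with correlations of 0.883 to 0.905 to the other libraries on the log2 scale of CPM (read counts scaled to a common library size), against 0.926 to 0.952 among the rest. Of 12 fibroblast markers 12 had reads, with summed levels of 311 to 363 CPM for input and 279 to 361 CPM for the pulldown. Of 5 markers each of adipocytes, epithelial cells and leukocytes, 2, 0 and 1 had any read, with at most 1 count of each list in a library. Reads of Nxf3, the bait gene, were at 790 ± 329 CPM (input) against 1140 ± 380 CPM (pulldown) (SD, n = 3 each), and they count RNA and not recovered protein.

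Histone reads were a smaller part of the pulldown RNA than of the input RNA in their mean, with overlapping libraries. After scaling by TMM, which corrects library sizes for composition, the 68 genes summed to 542, 677 and 844 CPM across inputs 1 to 3 and to 246, 352 and 548 CPM across pulldowns 1 to 3. The lowest input lay just under the highest pulldown, so the groups overlapped by that pair. The means were 688 ± 151 CPM (input) against 382 ± 153 CPM (pulldown) (SD, n = 3 each), a 1.80-fold lower level, or -0.85 on the log2 scale. No test is given for sums over these genes, because the list was chosen with results of these data known. For the level within a library, the number of cells in S phase and the histone RNA per cell cannot be told apart in bulk RNA.

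**Figure D1:**
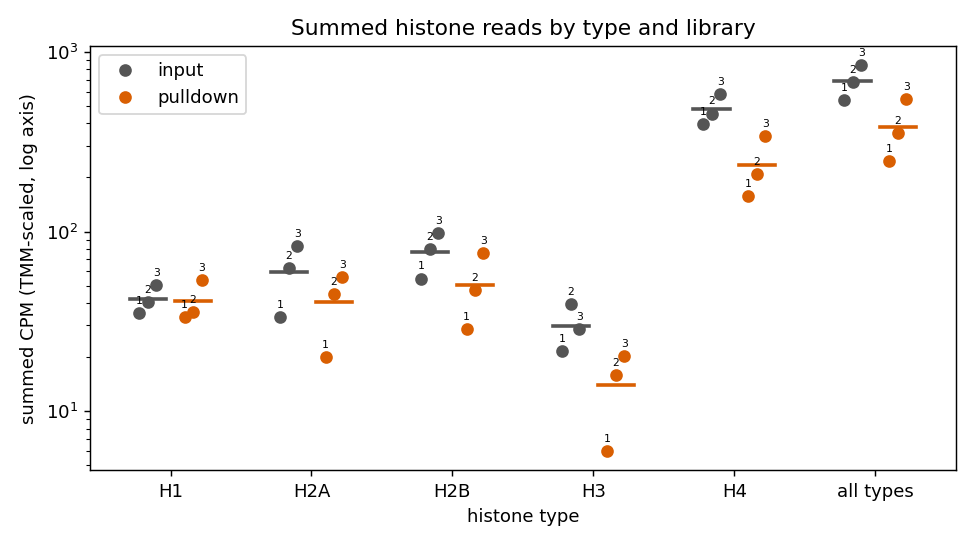
Summed TMM-scaled CPM of all members of each histone type in every library, on a log axis. Points are libraries with their number, and bars are group means. The pulldown points of H3 and H4 lie below all input points, while for H1 pulldown 1 lies below, pulldown 2 among and pulldown 3 above the inputs.

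The order of the means was the same against other denominators. Against the reads outside small RNA genes histone genes took 2.24%, 3.06% and 3.80% of counts across inputs 1 to 3 and 1.04%, 1.53% and 2.47% across pulldowns 1 to 3. Exact Clopper-Pearson 95% intervals of these shares were 2.13% to 2.36% for input 1 and 2.36% to 2.59% for pulldown 3, the pair in which the groups overlapped, and cover counting error only. As a share of all gene counts, histone genes made up 0.0697% ± 0.0278 (input) against 0.0400% ± 0.0161 (pulldown) (SD, n = 3 each). By library these shares were 0.0409%, 0.0719% and 0.0963% across inputs 1 to 3 and 0.0479%, 0.0214% and 0.0506% across pulldowns 1 to 3. Here input 1 lay below pulldowns 1 and 3, so the groups overlapped more widely than on the TMM scale. Leaving out 1 library at a time moved the log2 ratio of the scaled sums between -1.20 (without pulldown 3) and -0.61 (without pulldown 1), negative each time.

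The types differed in how far their sums were apart. H4 reads summed to 397, 454 and 585 CPM across inputs 1 to 3 and to 158, 208 and 342 CPM across pulldowns 1 to 3. On this TMM scale every pulldown library lay below every input library (log2 ratio of means -1.02, 2.03-fold lower). That order depended on the scaling, whose factors ran from 0.609 (pulldown 2) to 1.95 (pulldown 1). As unscaled shares of all gene counts the H4 groups overlapped. Input 1, with 1147 of 3828642 counts, lay below pulldown 1 (237 of 769570) and pulldown 3 (1035 of 3277335). H3 reads summed to 21.5, 39.5 and 28.5 CPM for input and to 5.999, 15.9 and 20.2 CPM for the pulldown. The groups again did not overlap on the TMM scale (log2 ratio -1.09), although pulldown 1 held only 9 H3 reads. Unscaled, input 1 (62 of 3828642 counts) lay below pulldown 3 (61 of 3277335) for H3 as well. H2B sums were 77.4 ± 21.5 CPM (input) against 50.6 ± 23.9 CPM (pulldown) (log2 ratio -0.61), and H2A sums were 59.8 ± 24.8 and 40.3 ± 18.4 CPM (log2 ratio -0.57), both with overlapping groups. H1 sums were 34.999, 40.5 and 50.1 CPM for input and 33.3, 35.7 and 53.9 CPM for the pulldown, with a log2 ratio of -0.03. H1, the linker histone, had overlapping groups with nearly equal means. Single libraries weighed on these ratios: without pulldown 3 and without pulldown 1 the log2 ratio was -0.86 and -0.24 for H2A, -1.02 and -0.33 for H2B, -1.43 and -0.72 for H3, and -1.38 and -0.79 for H4. Without input 3 it was -0.25 for H2A and -0.41 for H2B.

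Shares within the histone reads, which need no scaling between libraries, were compared as well. H1 genes held 6.45%, 5.98% and 5.94% of histone counts across inputs 1 to 3 and 13.6%, 10.1% and 9.83% across pulldowns 1 to 3. All 3 pulldown libraries lay above all 3 inputs, and the exact 95% interval of pulldown 3, 8.44% to 11.4%, did not reach that of input 1, 5.29% to 7.79%. These intervals cover counting error only and do not measure the spread between libraries. H4 genes held 73.3%, 67.1% and 69.3% in input and 64.2%, 59.2% and 62.4% in the pulldown, lower in each pulldown than in each input. The shares are tied to each other, so a lower share of H4 goes with a higher share of the other types together. The shares of H2A, H2B and H3 overlapped between the groups, at 8.44% ± 1.96, 11.2% ± 0.93 and 4.39% ± 1.28 in input and 10.4% ± 2.32, 12.97% ± 1.16 and 3.54% ± 1.04 in the pulldown (SD, n = 3 each). Whether types differ in their response was not tested.

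**Figure D2:**
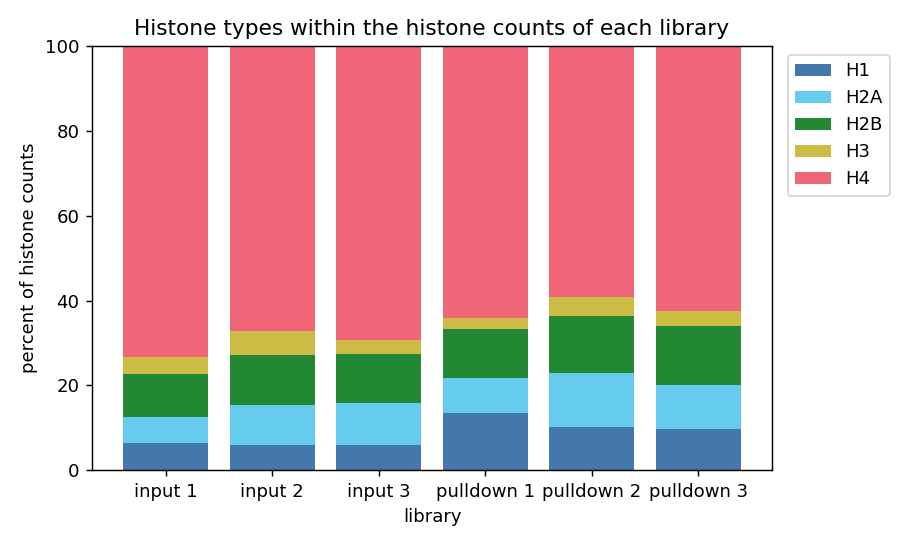
Percent of all histone counts taken by each histone type in the 6 libraries, as stacked bars. The H1 segment is 5.94% to 6.45% in the inputs and 9.83% to 13.6% in the pulldowns, and H4 takes most of every bar.

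By cluster, the large cluster 1 on chromosome 13 summed to 594 ± 119 CPM (input) against 321 ± 129 CPM (pulldown) (log2 ratio -0.89), without overlap on the TMM scale. As unscaled shares of all gene counts its groups overlapped, with 1394 of 3828642 counts in input 1 and 315 of 769570 in pulldown 1. Cluster 2 on chromosome 3 summed to 80.1 ± 29.5 and 54.5 ± 21.9 CPM (log2 ratio -0.55), with overlap, and the ratio was -0.26 without input 3 and -0.88 without pulldown 3. Cluster 3 on chromosome 11 had reads of 1 gene, Hist3h2a, and cluster 4 on chromosome 6 holds 1 gene, Hist4h4, so both are described below as single genes.

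Gene by gene, edgeR's quasi-likelihood test was run over all 1852 genes that passed a filter on low counts, and 23 of the 68 histone genes were among them. Of the other members 32 had between 1 and 59 counts in all 6 libraries together and 13 had none. No histone gene was called in either direction at a Benjamini-Hochberg adjusted p under 0.05 (smallest adjusted p = 0.0516, edgeR), where 1 of all tested genes (0.054%) was called lower and none (0%) higher. At an unadjusted p under 0.05, 4 histone genes were lower and 0 higher, against 3.35% and 2.27% of all tested genes. Negative log2 folds were found in 19 and positive ones in 4, with a median of -0.61, against 50.5% negative and a median of -0.00 over all tested genes. Members whose 3 pulldown levels all lay below their 3 input levels numbered 4 of 23, where this held for 6.16% of all tested genes. All 3 levels lay above the inputs in 0 members, against 4.27% of all tested genes. These counts are no support for a lower level of the family, because the filter asks for enough reads in any 3 libraries, and genes high in the inputs can pass through them alone. Hist1h3h and Hist3h2a, 2 of the 4 members without overlap, reached the filter's level of 2.81 unscaled CPM in all 3 inputs and in no pulldown, and Hist1h4c reached it in 3 inputs and 2 pulldowns. Of the 7 members that reached it in all 6 libraries, 7 had a negative log2 fold, 1 (Hist1h4d) had no overlap and 0 had an unadjusted p under 0.05 (edgeR). The same shares over all genes that reached the level were not computed, so these counts are no support either.

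**Figure D3:**
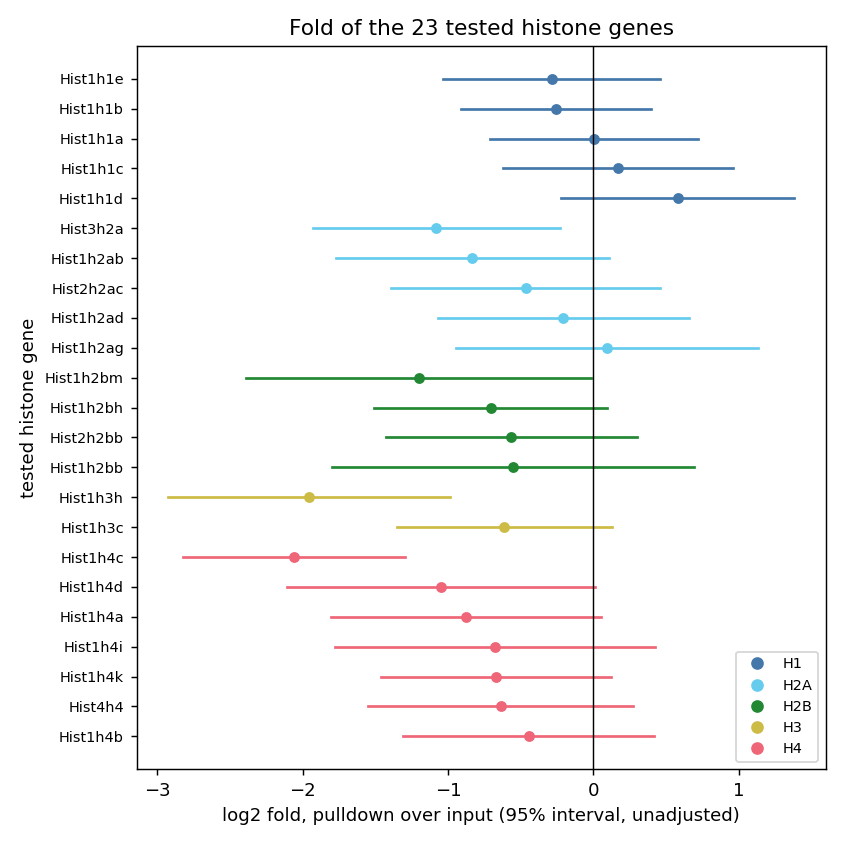
Log2 fold of pulldown over input for the 23 tested histone genes with unadjusted 95% intervals, colored by type. The intervals of Hist1h4c, Hist1h3h, Hist3h2a and Hist1h2bm lie below 0, and those of all other tested genes, H1 and core histones alike, span 0.

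H4 genes, which all encode the histone that pairs with H3 in the nucleosome core, held 7 of the 23 tested members, and each had a negative log2 fold (-2.06 to -0.44). Hist1h4d was the most read histone gene in each of the 6 libraries. It had 848, 706 and 2255 counts across inputs 1 to 3 and 198, 646 and 817 across pulldowns 1 to 3, which is 43.4% to 59.5% of all histone counts and 73.3% to 85.9% of H4 counts. Per kilobase of coding sequence its mean input level was 1227 CPM, against 122 for Hist2h2bb and 103 for Hist1h4i, the next members on that scale. Counts of a gene can include reads outside its coding sequence, so this scale favours genes with long untranslated ends. The transcript models are 1138 bases long for Hist1h4d, 727 for Hist1h4i and 381, all coding, for Hist2h2bb. The gene lies at chr13:23581598-23582735 on the plus strand in the GENCODE M21 models (GRCm38).

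In scaled levels, Hist1h4d was at 294, 353 and 502 CPM across inputs 1 to 3 and at 132, 153 and 270 CPM across pulldowns 1 to 3. On this scale every pulldown library lay below every input library. As unscaled shares of all gene counts the groups overlapped: input 1 (848 of 3828642) lay below pulldown 1 (198 of 769570) and pulldown 3 (817 of 3277335). The log2 fold came to -1.05 (SE 0.49, 95% interval -2.11 to 0.01), which did not pass (adjusted p = 0.825, edgeR). Its share of H4 reads was 79.2% ± 6.11 (input) against 78.6% ± 5.12 (pulldown) (SD, n = 3 each), overlapping between the groups. The other 12 H4 genes together, without it, also had every pulldown sum (26.0, 55.6 and 72.1 CPM) below every input sum (104, 101 and 82.6 CPM).

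Hist1h4c had the smallest p of all histone genes. Its levels were 10.7, 15.5 and 9.80 CPM across inputs 1 to 3 and 2.67, 1.89 and 3.97 CPM across pulldowns 1 to 3, with no overlap and a wide gap between the groups. The log2 fold was -2.06 (SE 0.35, 95% interval -2.82 to -1.29), a 4.16-fold lower level, which narrowly missed the threshold (adjusted p = 0.0516, edgeR). These levels stand for 31, 31 and 44 input reads and 4, 8 and 12 in the pulldown. Without pulldown 1 it was called (adjusted p = 0.0119, edgeR), and with the replicate number as a block it was called as well (adjusted p = 0.0451, edgeR), while over the alternatives its adjusted p ran from 0.000189 to 1.00. The stem-loops of Hist1h4c and Hist1h4d have the same 16 bases, as printed above.

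Hist1h4i did not follow this order. Its levels were 54.1, 27.0 and 15.1 CPM across inputs 1 to 3 and 6.67, 29.8 and 21.2 CPM across pulldowns 1 to 3, so the groups overlapped widely and 1 of 3 pulldowns lay below the input of its number (log2 fold -0.68, SE 0.51, adjusted p = 0.96, edgeR). Without input 1 its log2 fold was -0.03. Hist1h4a was at 19.6 ± 4.66 CPM for input and at 4.67, 6.39 and 20.2 CPM across pulldowns 1 to 3 (log2 fold -0.87, SE 0.43, adjusted p = 0.825, edgeR), so pulldown 3 alone reached the input range. Hist4h4, the single gene of cluster 4, had 7.95 ± 3.43 CPM (input) against 4.70 ± 2.92 CPM (pulldown) (log2 fold -0.64, SE 0.42). Hist1h4k had 10.3 ± 4.02 and 6.11 ± 2.44 CPM (log2 fold -0.67, SE 0.37), with overlap in both cases.

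**Figure D4:**
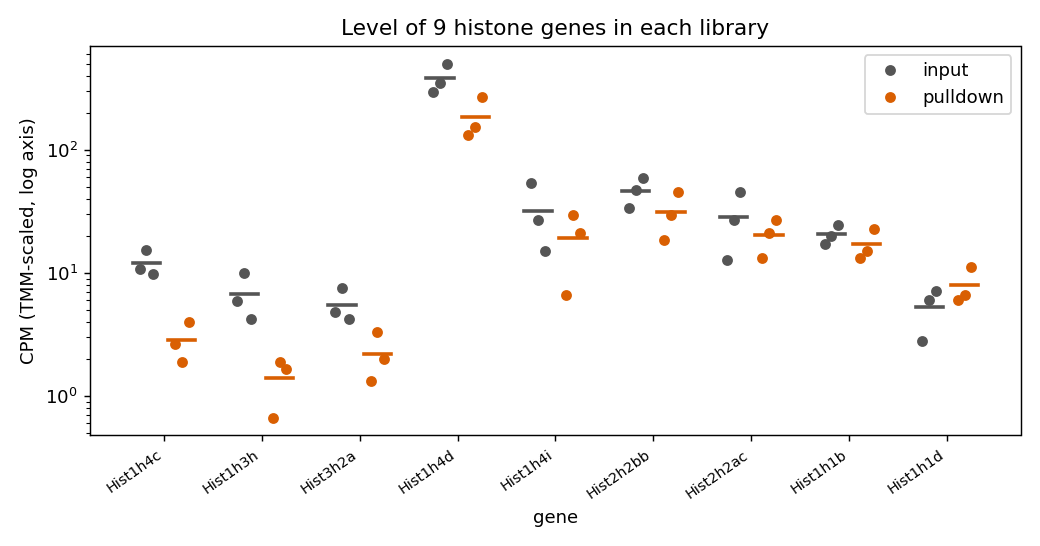
TMM-scaled CPM of 9 histone genes in the 6 libraries, on a log axis, with 1 point per library and bars at the group means. Hist1h4c, Hist1h3h, Hist3h2a and Hist1h4d have every pulldown point below every input point, while the points of Hist1h4i, Hist2h2bb, Hist2h2ac, Hist1h1b and Hist1h1d overlap.

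H3 genes, whose product carries many of the chromatin marks on its tail, were the least read of the types, with 406 counts over 12 genes, and 2 could be tested. Hist1h3h was at 5.89, 9.99 and 4.23 CPM across inputs 1 to 3 and at 0.67, 1.89 and 1.65 CPM across pulldowns 1 to 3. No pulldown library reached the inputs, but these values rest on 17, 20 and 19 input reads and on 1, 8 and 5 in the pulldown. The log2 fold came to -1.96 (SE 0.45, 95% interval -2.93 to -0.98, adjusted p = 0.202, edgeR). Hist1h3c had 5.33 ± 1.62 CPM (input) against 3.54 ± 1.00 CPM (pulldown) (log2 fold -0.61, SE 0.34, adjusted p = 0.855, edgeR). The other 10 H3 genes, below the filter, had between 2 and 48 counts each.

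H2A and H2B, which pair with each other in the nucleosome, were led by cluster 2 genes on chromosome 3. Hist2h2bb, an H2B gene at chr3:96269752-96270132 (plus strand, GRCm38), was the second most read histone gene, at 33.6, 47.0 and 59.2 CPM across inputs 1 to 3 and 18.7, 29.6 and 45.6 CPM across pulldowns 1 to 3. The groups overlapped, and each of 3 pulldowns lay below the input of its number (log2 fold -0.56, SE 0.40, adjusted p = 0.947, edgeR). Hist2h2ac, an H2A gene, was at 12.8, 27.0 and 45.2 CPM for input and at 13.3, 21.1 and 26.8 CPM for the pulldown (log2 fold -0.46, SE 0.43, adjusted p = 0.968, edgeR). Its sign rested on input 3, without which the log2 fold was 0.08.

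Hist3h2a, the H2A gene of cluster 3, was at 4.85, 7.495 and 4.23 CPM across inputs 1 to 3 and at 1.33, 3.31 and 1.98 CPM across pulldowns 1 to 3. The groups did not overlap, at 14, 15 and 19 input reads and 2, 14 and 6 in the pulldown (log2 fold -1.08, SE 0.39, adjusted p = 0.825, edgeR). Hist1h2bm had 4.95 ± 2.43 CPM (input) against 1.95 ± 1.98 CPM (pulldown), with no read in pulldown 1 (log2 fold -1.20, SE 0.55, adjusted p = 0.825, edgeR). Its log2 fold was -0.63 without input 3 and -1.90 without pulldown 3. Hist1h2ab, with 7.48 ± 2.98 and 3.83 ± 2.75 CPM, had a log2 fold of -0.83 (SE 0.43), and Hist1h2bh, with 8.72 ± 3.00 and 5.10 ± 2.48 CPM, of -0.70 (SE 0.37). In both genes pulldown and input levels overlapped.

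H1 genes had log2 folds on either side of 0. Hist1h1b, the most read of them, was at 17.3, 19.99 and 24.3 CPM across inputs 1 to 3 and at 13.3, 15.1 and 22.8 CPM across pulldowns 1 to 3 (log2 fold -0.26, SE 0.30, adjusted p = 0.968, edgeR), so the ranges overlapped. Hist1h1d was at 2.77, 5.996 and 7.13 CPM for input and at 5.999, 6.62 and 11.2 CPM for the pulldown, higher in 3 of 3 same-numbered pairs but overlapping (log2 fold 0.58, SE 0.37, 95% interval -0.22 to 1.38, adjusted p = 0.93, edgeR). Hist1h1c had a log2 fold of 0.17 (SE 0.37), which was -0.10 without input 2. The 5 tested H1 genes ran from -0.29 to 0.58, with a median of 0.00 and a median half-width of the 95% interval of 0.75, unadjusted. Hist1h1t, the H1 gene of the testis, had no read in any library.

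Histone copies share long stretches of sequence, so a short read can match several of them. Within a type, coding sequences of equal length were identical at a median of 96.4% of bases among H2A genes, 97.2% among H2B, 97.2% among H3 and 93.9% among H4. As a measure of what a short read can tell apart, the share of 30-base words of a coding sequence that occur in no other gene of GENCODE M21 was computed. It ran from 65.0% to 100% in H1 genes (median 83.0%) and had a median of 6.46% in H2A, 11.9% in H2B, 9.29% in H3 and 21.6% in H4 genes. Hist1h4d had 41.7%, Hist1h4c 37.5%, Hist1h3h 5.76%, and Hist2h2bb and Hist3h2a 0%. Counts of the latter 3 in particular may include reads of other genes or lack reads of their own. The words were compared with transcripts of all genes, on both strands. No other member has a coding sequence identical to that of Hist2h2bb or Hist3h2a, and which genes share their words was not determined. The sources used here do not give how the counting placed reads that match several genes. The count of reads set aside as aligned to several places was 0 in all 6 libraries.

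**Figure D5:**
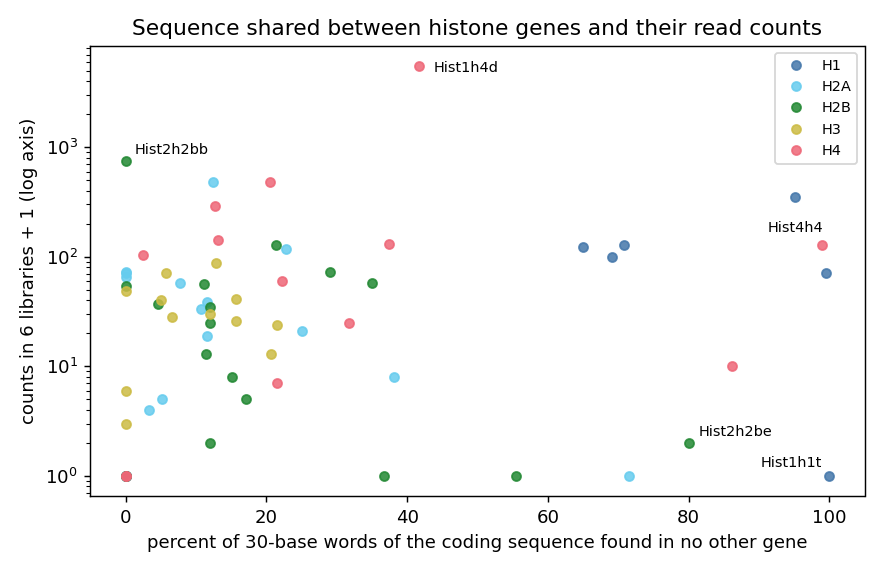
Counts summed over the 6 libraries, plus 1 and on a log axis, against the percent of 30-base words of the coding sequence that occur in no other gene, for 67 histone genes colored by type. The genes at the lower left, with 0 counts and 0%, are members of identical pairs, and the H1 genes lie at 65.0% or more.

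Of the 12 coding members with no read in any library, 8 had no unique word, and they were 4 pairs with identical coding sequences: Hist1h2ao with Hist1h2ap, Hist2h2aa1 with Hist2h2aa2, Hist1h2bq with Hist1h2br, and Hist1h4m with Hist1h4n. The other 4 were Hist1h1t, Hist1h2aa, Hist1h2ba and Hist3h2ba, with 36.6% to 100% unique words. The fifth identical pair, Hist2h3c1 and Hist2h3c2, had 2 and 48 counts. Members with reads could lack unique words as well. This held for 4 of 23 tested members (Hist1h2ad, Hist1h2ag, Hist2h2bb and Hist3h2a) and for 4 of 32 read but not tested. A count of 0 allows up to 3 reads, or 0.668 to 2.00 CPM depending on the library, and this limit does not cover reads that could not be placed. The type with the largest share of unique words, H1, was also the type with nearly equal levels in both groups, and the part of sequence sharing in the difference between types was not tested. Among the 7 tested H4 genes, Hist4h4 had 98.9% unique words and a log2 fold of -0.64, Hist1h4d 41.7% and -1.05, and Hist1h4c 37.5% and -2.06. Hist1h4i had 20.5% and -0.68, Hist1h4k 13.1% and -0.67, Hist1h4a 12.7% and -0.87, and Hist1h4b 2.47% and -0.44. A relation between unique words and fold was not tested.

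Other genes of the histone pathway had few reads and no calls. Of 16 replacement histone variants in the files, which are made outside S phase from mostly polyadenylated mRNAs, 12 had reads and 2 were tested. Their summed level was 12.5 ± 1.52 CPM (input) against 14.3 ± 2.92 CPM (pulldown) (SD, n = 3 each), against 688 and 382 CPM for the replication-dependent genes. H1f0, a replacement linker histone, had a log2 fold of 0.40 (SE 0.41) and H3f3b, a gene of the replacement histone H3.3, of -0.04 (SE 0.41). The difference between these genes and the replication-dependent ones was not tested.

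Of 28 genes for the 3′ end formation, transcription and decay of histone mRNA, 26 had reads and 3 were tested, with 0 called lower and 0 higher and a median log2 fold of 0.03. Slbp, the stem-loop binding protein, had 7, 1 and 4 counts across inputs 1 to 3 and 1, 4 and 4 across pulldowns 1 to 3, too few to test, and Rnu7, the U7 RNA gene, had none. Zcchc11, a terminal uridylyltransferase, had a log2 fold of 0.50 (SE 0.42) and Upf1, an RNA helicase of mRNA decay, of -0.26 (SE 0.53), which was 0.18 without input 2. Of 18 histone chaperone genes 9 were tested, with 0 calls and a median of 0.14. Rbbp4, a histone-binding protein, was at 7.55 ± 0.75 CPM (input) against 4.39 ± 0.90 CPM (pulldown) (log2 fold -0.82, SE 0.30, adjusted p = 0.825, edgeR), and Nap1l1, an H2A-H2B chaperone, had a log2 fold of 0.57 (SE 0.40).

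Of 25 S-phase genes 4 were tested, with 0 calls and 4 positive log2 folds (median 0.19). Rrm2 and Rrm1, the subunits of ribonucleotide reductase, had log2 folds of 0.34 (SE 0.33) and 0.20 (SE 0.30). The 25 S-phase genes summed to 51.3 ± 7.56 CPM (input) and 55.6 ± 2.46 CPM (pulldown), with overlap. Of 21 export factors and adaptors in the files 10 were tested, with 0 calls, 7 negative and 3 positive log2 folds and a median of -0.32. These counts include the bait gene Nxf3, with a log2 fold of 0.53 (SE 0.55). Nxf1, the general mRNA export receptor, was at 16.6, 18.0 and 18.0 CPM across inputs 1 to 3 and 13.3, 9.70 and 11.2 CPM across pulldowns 1 to 3 (log2 fold -0.65, SE 0.26, adjusted p = 0.825, edgeR), without overlap on the TMM scale only. Thoc2, of the THO complex, had a log2 fold of -0.81 (SE 0.42).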

How the data were processed

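Small RNA of 3 input and 3 NXF3 pulldown libraries was analysed. The authors deposited 1 table of raw counts per library, by gene symbol. The submitters' processing notes name Bowtie, Partek and the mm9 build. Each table closes with the 5 summary lines of HTSeq-count, which were left out. Of them, reads in no gene were 16.9% to 28.0%, unaligned reads 27.5% to 51.7%, reads of low mapping quality 6.75% to 9.18%, ambiguous reads 0.197% to 0.427% and reads with several alignments 0% in each library. The sources used here do not give versions, strand setting, annotation or the treatment of reads with several alignments. Libraries were amplified with 14 PCR cycles, per the labels' protocols, which mention no molecular identifiers, so intervals and floors (3 counts for a count of 0) cover counting error only.

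Counts were analysed with edgeR 4.0.16 in R 4.3.3 (TMM, filterByExpr with minimum count 10, quasi-likelihood test between the groups, Benjamini-Hochberg over 1852 genes, threshold 0.05). SE and intervals came from the F statistic. CPM are counts over TMM-scaled library sizes. The fit was tested on simulated data. DESeq2 1.42.0 and limma 3.58.1 (voom) were alternatives. Whether libraries of equal number belong together is not stated in the labels, so the test had no block, and p-values measure the spread between these libraries.

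The members and lists were chosen with earlier results of these data known. Genes named were the 12 most read members, the 2 with the smallest p per type and in each pathway list, any called with the replicate block, and Nxf3. Others named (among them Hist1h4b, Hist1h1t, Slbp, Rnu7 and the unread members) were chosen after their values were seen. Lists covered replacement variants, 3′ end processing and decay, export, chaperones, S phase and cell type markers. Lengths and sequences came from GENCODE M21, in which 68 of 68 symbols matched.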

Additional observations from a re-analysis of the deposited data

How the results depend on the processing

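Histone genes called lower numbered 0 in the edgeR test, 1 with TMM without small RNA genes (1421 genes tested), with the replicate block and with DESeq2 (Hist1h4c each time), and 2 without a filter (with Hist1h3h); leaving out single libraries gave 0 to 1, the call coming without pulldown 1. No setting run called a histone gene higher. Over all tested genes, lower calls (1) became 0 with total-count scaling, 0 with genes under a mean of 50 counts dropped, 2 with TMM without small RNA genes, 9 without a filter, 3 with the replicate block and with DESeq2, and 0 to 5 without single libraries (5 without pulldown 1, 0 without pulldown 2); higher calls (0) became 7 without a filter, 1 with genes under a mean of 50 counts dropped, with the replicate block and with DESeq2, and 0 to 6 without single libraries. Fewer or more genes tested changes the adjustment; otherwise the cause was not tested. The median log2 fold of tested members was -0.93 to -0.39 without single libraries, and below that of all tested genes in each of the 14 alternatives. This is no support for a lower level of the family. Most alternatives keep a filter that genes high in the inputs can pass through them alone, and all reuse the same libraries. The log2 ratios of sums moved by less than 1 SD between libraries. That SD was as large as 0.73 for H2A, whose ratio was -0.57, and 1.04 for cluster 4, whose ratio was -0.76. Leaving out single libraries gave -0.86 to -0.24 for H2A, -1.02 to -0.33 for H2B and -0.88 to -0.26 for cluster 2. H1 alone among the types changed sign, with -0.28 to 0.12 without single libraries, 0.16 without its largest member and 0.11 with total-count scaling. Without the H4 members, a setting chosen after seeing the data, the log2 ratio was -0.52. The sign of some folds near 0 turned when single libraries were left out: Hist2h2ac ran from -0.80 to 0.084, Hist1h1c from -0.10 to 0.45, H3f3b from -0.18 to 0.18 (0.049 with total-count scaling, 0.040 with the replicate block; 0.18 without input 1, 0.12 without pulldown 3) and Upf1 from -0.57 to 0.18 (0.085 without pulldown 3). Deviations of same-numbered libraries correlated at 0.03, 0.07 and 0.14, and each library correlated best with its own number. Such weak correlations do not settle whether the numbers mark pairs. The block was left out because the labels do not state a pairing. With the pairing, the mean log2 ratio of the summed histone counts was -0.90. Clusters 3 and 4 have no value without their largest member, since no other member had a read.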
